A study of Mus musculus with 6 samples.

Results

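The 10 genes described here are Siglec15, Oscar, Calcr, Nfatc1, Mitf, Dcstamp, Ocstamp, Acp5, Ctsk and Atp6v0d2, which are known from osteoclasts and from the fusion of macrophages into multinucleated cells. They were found by Ensembl identifier among the 54532 genes of the count file, with symbols from GENCODE M21 (build GRCm38). The set was chosen by measured values, since it was built around the counts of Siglec15, which had almost no counts on the normal diet and many on the high-fat diet in these same libraries. Every difference between diets given for the 10 genes is therefore a description and carries no p-value. RNA-Seq was made from the epididymal fat, the visceral depot beside the epididymis, of male C57BL/6J mice. The ND-fed group (n = 3 libraries) ate a normal diet with 4.5% fat and the HFD-fed group (n = 3) a diet with 60% fat. Both diets started at 4 weeks of age and ran for 16 weeks, and the mice of both groups were labelled as untreated. Diet-induced obesity in 1 inbred male strain is the model, and the sources used here do not say whether a library came from 1 mouse or from pooled mice, so the spread between libraries may be in part technical.

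Osteoclasts are bone-resorbing cells that form by fusion of precursors of the monocyte and macrophage lineage. The cytokine M-CSF and the ligand RANKL act on the precursors through the receptors c-Fms and RANK, and receptors that pair with the adaptors DAP12 or FcRγ give a second signal. The transcription factor NFATc1 then switches on genes for fusion, for acid secretion and for digestion of matrix. Many of the same genes are also used by macrophages outside bone, including those of obese fat, where MITF and its relatives TFEB, TFE3 and TFEC drive lysosomal genes.

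Count totals lay between 16996896 and 18859320 per library, and 3 counts, taken as the floor, correspond to 0.149 to 0.180 CPM (the count scaled to a common library size with the TMM factor), for counting error only. The third ND library stood apart from the rest, with 334 CPM summed over 11 motile cilium and epithelial markers against 24.8 to 34.9 CPM in the other 5. Markers of macrophages were present in all libraries and summed to 1870 to 1979 CPM on ND and 4021 to 8818 CPM on HFD. Of their 16 genes, 9 were called higher on HFD and 0 lower (adjusted p under 0.05 by edgeR's test), beside 9.85% and 6.04% of all genes. Their log2 fold changes ran from -0.31 to 4.54. Fewer cells of a type and less RNA per cell cannot be told apart in RNA from whole tissue. Of the markers of bone-forming cells, Bglap, Bglap2, Ibsp and Mepe were at 0 in all 6 libraries, and the 10 markers summed to 8.75 to 14.2 CPM. The name osteoclast genes refers to where these genes are best known, and no osteoclast was identified in this tissue.

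On HFD, 7 of the 10 genes had higher levels than on ND in every library, 1 was lower in every library, 1 had a few counts in all libraries and 1 had none. Of the 10, 8 passed the filter on low counts, and 3 of these (Siglec15, Dcstamp and Ocstamp) had 10 or more counts in all 3 libraries only on HFD. In the fit over all 15751 genes tested, 6 were called higher and 1 lower, beside a background of 9.85% of all genes called higher and 6.04% called lower, and nothing is read from that difference because this contrast chose the set. The HFD libraries lay above all ND libraries for 7 of the 8 (21.9% of all genes tested) and below them for 1 (19% of all genes). The number called was 7 with all libraries and changed with the libraries used. It was 2 without ND replicate 1, 1 without ND replicate 2, 4 without ND replicate 3 and 3 without HFD replicate 1. Over all genes tested, the calls fell from 2504 to 492, 591, 1003 and 474 in the same fits, which also serve for the lists below.

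**Figure D1:**
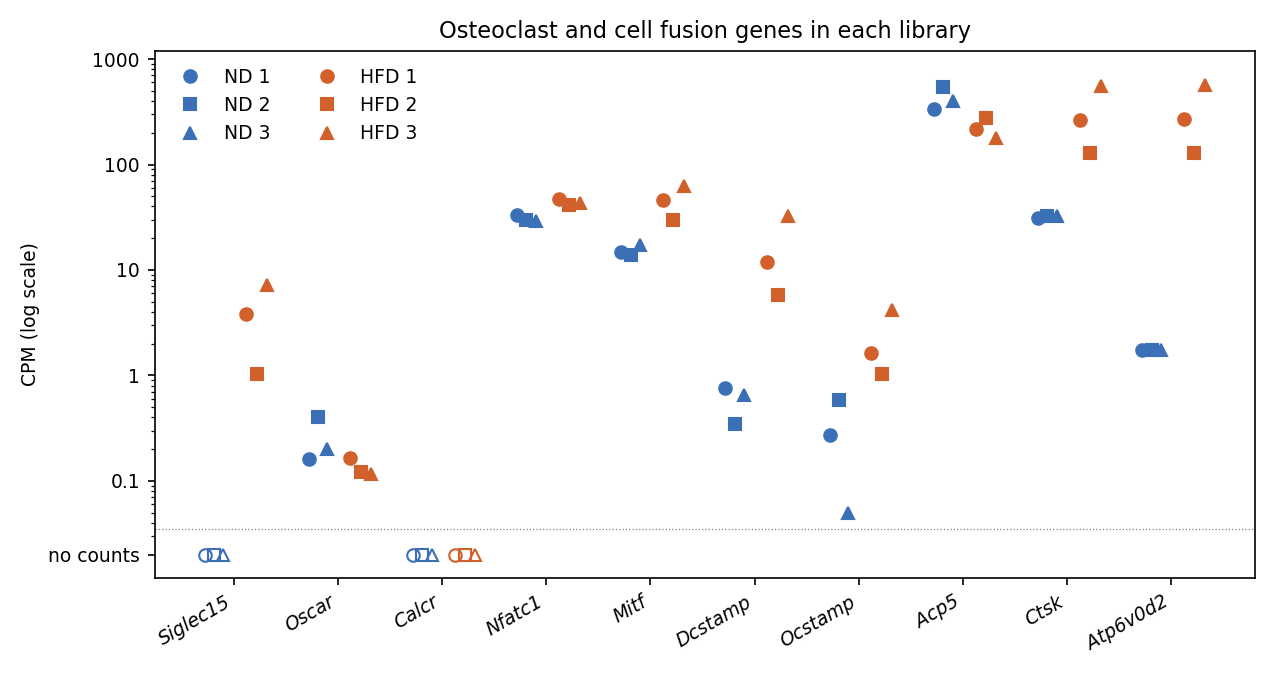
Level of each of the 10 genes in the 6 libraries, in CPM on a log axis, with ND libraries in blue and HFD libraries in orange. Each point is 1 library, with the replicate number given by the symbol, and open symbols under the dotted line mark libraries without counts. The 3 HFD points lie above the 3 ND points for Siglec15, Nfatc1, Mitf, Dcstamp, Ocstamp, Ctsk and Atp6v0d2 and below them for Acp5.

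Among the surface receptors, Siglec15 had no counts on ND and clear counts on HFD, and the other 2 had few or none. Siglec15 (ENSMUSG00000091055, chromosome 18 from 78043614 to 78057395, minus strand) encodes a sialic acid-binding receptor that pairs with DAP12 and takes part in osteoclast formation. Its counts were 0, 0 and 0 on ND against 70, 17 and 126 on HFD. The HFD levels were 3.82, 1.02 and 7.25 CPM, so that even the lowest HFD library was 6.33 times the mean ND floor, and the mean of 4.03 ± 3.12 CPM (SD, n = 3) was at least 24.9-fold higher than the mean floor of 3 counts per ND library. Oscar (ENSMUSG00000054594, chromosome 7 from 3609813 to 3616157, minus strand) encodes a collagen receptor that signals through FcRγ. It had 3, 7 and 4 counts on ND against 3, 2 and 2 on HFD, and it did not pass the filter on low counts. Calcr (ENSMUSG00000023964, chromosome 6 from 3685680 to 3764714, minus strand), which encodes the calcitonin receptor and is a defining gene of mature osteoclasts, had 0 counts in all 6 libraries, a level not detectable above 3 counts at this depth. The 3 receptor genes thus took 3 different courses, and of these only Siglec15 had more than 7 counts in any library.

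The transcription factors Nfatc1 and Mitf had moderate levels on both diets. Nfatc1 (ENSMUSG00000033016, chromosome 18 from 80606205 to 80713071, minus strand), the central regulator of osteoclast differentiation, had 611, 513 and 585 counts on ND against 859, 681 and 753 on HFD. The mean went from 30.6 ± 2.06 to 43.7 ± 2.97 CPM (SD, n = 3 each), and the log2 fold change of 0.51 (SE 0.11) was the smallest among the 8 genes. Mitf (ENSMUSG00000035158, chromosome 6 from 97807052 to 98021349, plus strand), which acts with Nfatc1 and PU.1 on osteoclast genes and also serves melanocytes and mast cells, had 276, 240 and 350 counts on ND against 845, 490 and 1081 on HFD. Its mean went from 15.4 ± 1.81 to 45.9 ± 16.4 CPM, a log2 fold change of 1.57 (SE 0.27). Both genes separated the diets without overlap, and Mitf varied far more than Nfatc1 among the HFD libraries. Markers of these other cell types were measured beside it. Of 8 mast cell markers tested 0 were called (median log2 fold change 1.62, summed level 37.4 to 73.4 CPM on ND and 58.2 to 207 CPM on HFD), and of the melanocyte markers 1 of 2 was called, Dct, which was lower on HFD (69, 81 and 67 counts against 15, 18 and 13). Pmel, the other melanocyte marker tested, was not called. Mlana did not pass the filter and went the other way from Dct (1, 0 and 0 counts on ND against 7, 5 and 6 on HFD). The part of mast cells in the level of Mitf was not tested.

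The fusion proteins Dcstamp and Ocstamp were low on ND. Dcstamp (ENSMUSG00000022303, chromosome 15 from 39745930 to 39760938, plus strand) encodes the multipass membrane protein DC-STAMP, which osteoclasts and macrophage giant cells need to fuse. It had 14, 6 and 13 counts on ND against 216, 96 and 562 on HFD. Its mean of 0.583 ± 0.211 CPM on ND compared with 16.6 ± 13.9 CPM on HFD, 28.5-fold higher, with a log2 fold change of 4.81 (SE 0.73). Ocstamp (ENSMUSG00000027670, chromosome 2 from 165393760 to 165400405, minus strand), its relative with a similar role, had 5, 10 and 1 counts on ND against 30, 17 and 72 on HFD. The means were 0.300 ± 0.266 and 2.27 ± 1.65 CPM, and its log2 fold change of 2.92 (SE 0.82) was the only one of the 8 that the fit over all genes did not call. Both genes were highest in the third HFD library and lowest in the second, where Ocstamp (17 counts) stood closest to its highest ND library (10 counts).

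Of the effectors of resorption, Ctsk and Atp6v0d2 were higher on HFD, while Acp5 was lower. Atp6v0d2 (ENSMUSG00000028238, chromosome 4 from 19876841 to 19922605, minus strand) encodes the d2 subunit of the proton pump that acidifies lysosomes and the resorption pit, and it also takes part in fusion. It had 32, 30 and 35 counts on ND against 4932, 2128 and 9947 on HFD. The ND counts carry exact 95% Poisson intervals of 20.2 to 42.8 (30 counts) to 24.4 to 48.7 (35 counts), wider than the spread between the libraries, so the small SD of the ND mean, 1.73 ± 0.00834 CPM, is no measure of its precision. The HFD mean of 323 ± 227 CPM was 186-fold higher, with a log2 fold change of 7.53 (SE 0.65), above those of the other 6 genes with counts on both diets that were tested. Ctsk (ENSMUSG00000028111, chromosome 3 from 95499256 to 95509362, plus strand) encodes cathepsin K, the protease that degrades bone collagen. It had 581, 564 and 647 counts on ND against 4800, 2143 and 9739 on HFD, with means of 32.1 ± 0.685 and 317 ± 221 CPM and a log2 fold change of 3.30 (SE 0.51).

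Acp5 (ENSMUSG00000001348, chromosome 9 from 22126727 to 22135711, minus strand) encodes tartrate-resistant acid phosphatase, the enzyme whose stain is used to find osteoclasts, and it took the opposite course. It had 6177, 9375 and 8011 counts on ND against 3985, 4643 and 3086 on HFD. The mean was 425 ± 108 CPM on ND and 225 ± 51.3 CPM on HFD, 1.89-fold higher on ND, with a log2 fold change of -0.92 (SE 0.24). The noncoding gene 6530413G14Rik, which overlaps Acp5 on the other strand, had at most 9 counts in any library. Within the HFD group the second library had the highest level of Acp5 and the third the lowest, an order that the summed level of 12 adipocyte markers shared (22525, 32798 and 15817 CPM in the 3 HFD libraries, against 24167 to 32200 CPM on ND). On ND the full order was not shared. There Acp5 was lowest in the first library (333 CPM) and the summed adipocyte markers in the third (24167 CPM). Taken as a share of the adipocyte sum, Acp5 was 1.14, 1.69 and 1.65% on ND and 0.965, 0.852 and 1.12% on HFD, without overlap between the diets on this sum. Fabp4 alone had a mean of 12403 CPM on ND and 10481 CPM on HFD within it. The log2 fold changes of the 12 markers ran from -1.42 (Slc2a4) to 1.38 (Lep). The share therefore depends on the markers chosen, and single markers that fell on HFD can give another picture. The part of adipocytes in the level of Acp5 was not tested.

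The promoter letters of Acp5 and Ctsk are shown because these effectors, which share regulators in osteoclasts, moved in opposite directions. RefSeq (build GRCm38.p6) gave start sites for 5 of the 10 genes, 10 sites in all, with 3 for Acp5, 2 for Calcr, 1 for Ctsk, 3 for Mitf and 1 for Oscar. Windows from 250 bases before to 50 bases after each start were searched on both strands for CATGTG and CACGTG, 2 forms of the E-box that MITF and its relatives bind, for TGANTCA (the AP-1 site, with N any base), for GGAAGT (an ETS core as bound by PU.1) and for TGGAAA (the NFAT core). None of these motifs holds another. The 250 bases before the start are printed 5′ to 3′ on the strand of the gene, with matches in capitals, at chr9:22130599-22130848 (minus strand) for the third start of Acp5 and at chr3:95498960-95499209 (plus strand) for Ctsk.
Acp5: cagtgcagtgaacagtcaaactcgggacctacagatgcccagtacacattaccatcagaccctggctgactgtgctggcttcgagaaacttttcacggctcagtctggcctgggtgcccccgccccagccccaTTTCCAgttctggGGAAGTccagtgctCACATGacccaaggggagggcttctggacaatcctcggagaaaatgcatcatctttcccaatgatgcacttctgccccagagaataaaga
Ctsk: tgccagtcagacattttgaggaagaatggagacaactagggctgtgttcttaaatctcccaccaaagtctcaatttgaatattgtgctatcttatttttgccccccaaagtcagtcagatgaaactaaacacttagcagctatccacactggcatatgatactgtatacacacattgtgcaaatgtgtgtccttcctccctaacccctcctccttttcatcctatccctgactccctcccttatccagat
The third start of Acp5 is printed because it was the only 1 of its 3 starts with a match, and the windows of the other 2 held none of the letters searched. In that window the 3 matches stand close together, TTTCCA (the NFAT core read on the other strand), then GGAAGT, then CACATG (the E-box CATGTG read on the other strand). The stretch of Ctsk before the RefSeq start at 95499210 held none of the letters searched. Its matches to TGGAAA and GGAAGT lay in the 50 bases after that start. Both matches lie before the GENCODE start of Ctsk at 95499256, so their place depends on the annotation. Over the 10 start sites, CATGTG was found in 2 (14.2% of 32851 promoters of all genes), CACGTG in 0 (7.15%), TGANTCA in 0 (7.81%), GGAAGT in 2 (23.8%) and TGGAAA in 4 (21.4%). These are matches of letters in a short window and say nothing of whether a factor was bound.

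The HFD libraries differed widely from each other, and most of the 10 genes differed in the same order. The second HFD library had the lowest and the third the highest level for 6 of the 8 tested genes, all but Nfatc1 and Acp5. That order held for 32.3% of all genes tested and for 73% of the genes called higher, so it was common in these libraries. The third HFD library was 7.09 times the second for Siglec15, 5.60 times for Dcstamp, 4.47 times for Atp6v0d2, 4.35 times for Ctsk, 4.05 times for Ocstamp and 2.11 times for Mitf, beside 2.19 times for the summed macrophage markers. For Nfatc1 the factor was 1.06 and for Acp5 it was 0.636. The factor for Siglec15 rests on 17 counts in the second HFD library (exact 95% Poisson interval 9.90 to 27.2), so its place above Dcstamp and Atp6v0d2 is within counting error.

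**Figure D2:**
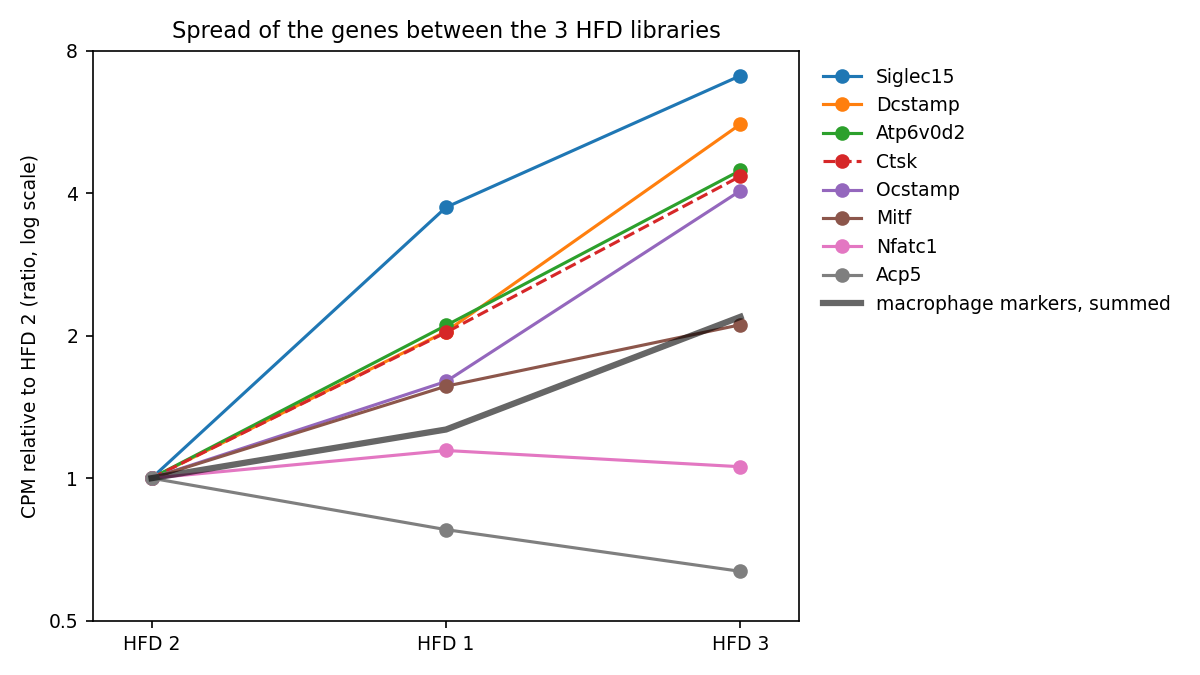
CPM in each HFD library divided by the CPM in the second HFD library, on a log axis, for 8 genes and for the summed macrophage markers. Each line joins the 3 HFD libraries of 1 gene, and the lines for Siglec15, Dcstamp, Atp6v0d2, Ctsk and Ocstamp end above the macrophage markers (2.19), whereas Nfatc1 stays near 1 and Acp5 falls below it.

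Levels were compared between genes per length, in FPKM (fragments per kilobase of gene, scaled to library size). On ND, Acp5 led with a mean of 213 FPKM, followed by Ctsk at 21.6, Nfatc1 at 4.18, Mitf at 2.53 and Atp6v0d2 at 0.649 FPKM. Dcstamp (0.222), Oscar (0.141) and Ocstamp (0.0836) came next, and neighbours among these 3 overlapped in their libraries, whereas no other neighbours with values above 0 did. On HFD the order was Ctsk (211 ± 146 FPKM), Atp6v0d2 (120 ± 83.7), Acp5 (111 ± 25.6), Mitf (7.45), Dcstamp (6.27), Nfatc1 (5.91), Siglec15 (3.50), Ocstamp (0.623) and Oscar (0.0724). The first 3 overlapped in their libraries, as did neighbours from Mitf to Ocstamp, and gaps without overlap lay only between Acp5 and Mitf and on either side of Oscar. The ratio of Acp5 to Ctsk in FPKM was 7.92, 12.4 and 9.22 on ND and 0.618, 1.61 and 0.236 on HFD, so that Acp5 stayed above Ctsk in the second HFD library and lay below it in the first and the third.

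Ctsk and Atp6v0d2 had a nearly fixed ratio among the HFD libraries, a pattern noticed after the values were seen. Ctsk was 1.75, 1.81 and 1.76 times Atp6v0d2 in FPKM in the HFD libraries. On ND it was 32.6, 33.8 and 33.2 times, with Atp6v0d2 at 30 to 35 counts, closer together than the counting error of such counts. The ratio varied little among HFD libraries whose levels of either gene differed more than 4-fold. Dcstamp was 4.47, 4.60 and 5.76% of Atp6v0d2 in the HFD libraries, and Siglec15 was 3.33, 1.88 and 2.98% of it.

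The macrophage markers summed to a 3.12-fold higher level on HFD (5978 ± 2517 against 1916 ± 56.6 CPM, SD, n = 3 each), and the 9 genes with counts were set against that sum. Atp6v0d2 went from a mean of 0.0906% of the macrophage sum on ND to 4.98% on HFD, a 55.0-fold difference. The share was also higher without overlap for Dcstamp (8.15-fold) and Ctsk (2.92-fold), and for Siglec15, which was at 0 on ND and at 0.0750, 0.0254 and 0.0822% on HFD. For Mitf the share was 0.970 times that on ND and the diets overlapped, and for Ocstamp it was 2.23 times with overlap. Nfatc1, higher per library on HFD, was lower per macrophage marker, at 0.508 times its ND share, and Acp5 was at 0.198 times. Oscar, with at most 7 counts in a library, was at 0.187 times. Lyz2 alone held 901 of the 1916 CPM on ND and 3101 of the 5978 CPM on HFD. Of the 16 markers, only Cd68 (13.2-fold) and Itgax (23.4-fold) rose more than Ctsk (9.89-fold) in mean CPM. A gene that rose less than the sum has a lower share on HFD. This scaling depends on the markers chosen, whose own log2 fold changes ran from -0.31 to 4.54, and the part of a larger number of macrophages in any of these levels was not tested.

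**Figure D3:**
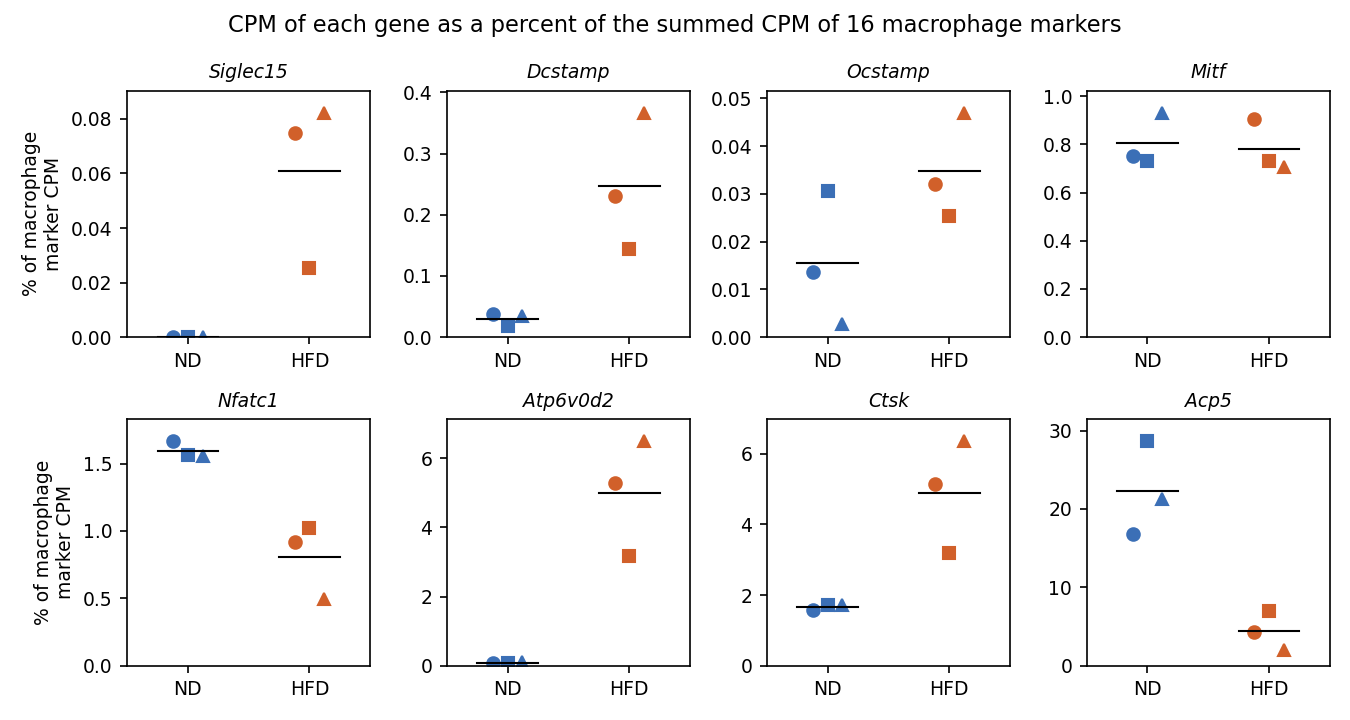
Level of each gene as a percent of the summed CPM of 16 macrophage markers, by diet, with a separate axis for each gene starting at 0. Points are the 3 libraries of each diet and lines are means. Atp6v0d2, Dcstamp, Ctsk and Siglec15 stay higher on HFD on this scale, Mitf and Ocstamp overlap, and Nfatc1 and Acp5 are lower. The sum itself was 3.12-fold higher on HFD, so a gene that rose less lies lower on this scale.

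Close relatives were measured beside Atp6v0d2, Mitf and Nfatc1. Atp6v0d1, the d1 subunit found in all cells, had 2154, 2414 and 2235 counts on ND against 2643, 2276 and 3326 on HFD and did not pass the threshold (log2 fold change 0.36, SE 0.17, adjusted p = 0.182 by edgeR's quasi-likelihood test). In FPKM, Atp6v0d2 made up 0.971, 0.814 and 1.02% of the 2 subunits together on ND and 55.2, 38.2 and 66.4% on HFD, while their sum went from 70.1 ± 9.04 to 208 ± 99.8 FPKM. Within its family, Mitf made up 19.4, 20.1 and 23.3% of the FPKM of Mitf, Tfeb, Tfe3 and Tfec on ND and 33.0, 27.6 and 32.1% on HFD. Tfeb, a regulator of lysosome formation, rose (0.90, SE 0.20, adjusted p = 0.0281 by edgeR's test), and Tfe3 (0.56, SE 0.16, adjusted p = 0.0511) and Tfec (2.15, SE 0.71, adjusted p = 0.0807) missed the threshold. Nfatc1 made up 30.6 to 31.9% of the 4 calcium-dependent Nfatc genes on ND and 36.8 to 38.3% on HFD, with Nfatc2 rising (0.95, SE 0.23, adjusted p = 0.0328 by edgeR's test) and Nfatc3 at -0.16 and Nfatc4 at 0.26. The calls of Tfeb and Nfatc2 were lost without any 1 of the ND libraries or HFD replicate 1 (adjusted p = 0.0790 to 0.0974 and 0.0703 to 0.129), and that of Nfatc2 also without HFD replicate 3 (0.0585).

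Among 27 such relatives, 11 rose, 0 fell and the rest were not called, beside 9.85% and 6.04% of all genes called higher and lower. Their median log2 fold change was 0.62, beside 0.01 over all genes tested. Ctss, the cathepsin of antigen presentation, rose by 3.62 on the log2 scale (SE 0.36, adjusted p = 0.00448 by edgeR's quasi-likelihood test), and Ctsz, a carboxypeptidase, by 2.06 (SE 0.28, adjusted p = 0.00789). Ctsk stayed a small part of the cathepsins listed, at 1.96 to 2.77% of their FPKM on ND and 3.40 to 6.47% on HFD. Of the other sialic acid receptors, Siglecf, known from eosinophils and alveolar macrophages, had 2, 3 and 6 counts on ND against 24, 16 and 32 on HFD (2.77, SE 0.51, adjusted p = 0.0154 by edgeR's test). Cd22, known from B cells, had 23, 55 and 15 counts on ND against 184, 107 and 196 on HFD (2.43, SE 0.53, adjusted p = 0.0257 by edgeR's test). Unlike Siglec15, both had counts in every ND library. The calls of Ctss and Ctsz held with any 1 library left out. That of Siglecf was lost without ND replicate 1, ND replicate 2 or HFD replicate 1 (adjusted p = 0.0657 to 0.0686), and that of Cd22 without ND replicate 1, ND replicate 3 or HFD replicate 1 (0.0575 to 0.0975). The count of 11 fell to 2 without ND replicate 1, 3 without ND replicate 2, 4 without ND replicate 3 and 2 without HFD replicate 1.

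**Figure D4:**
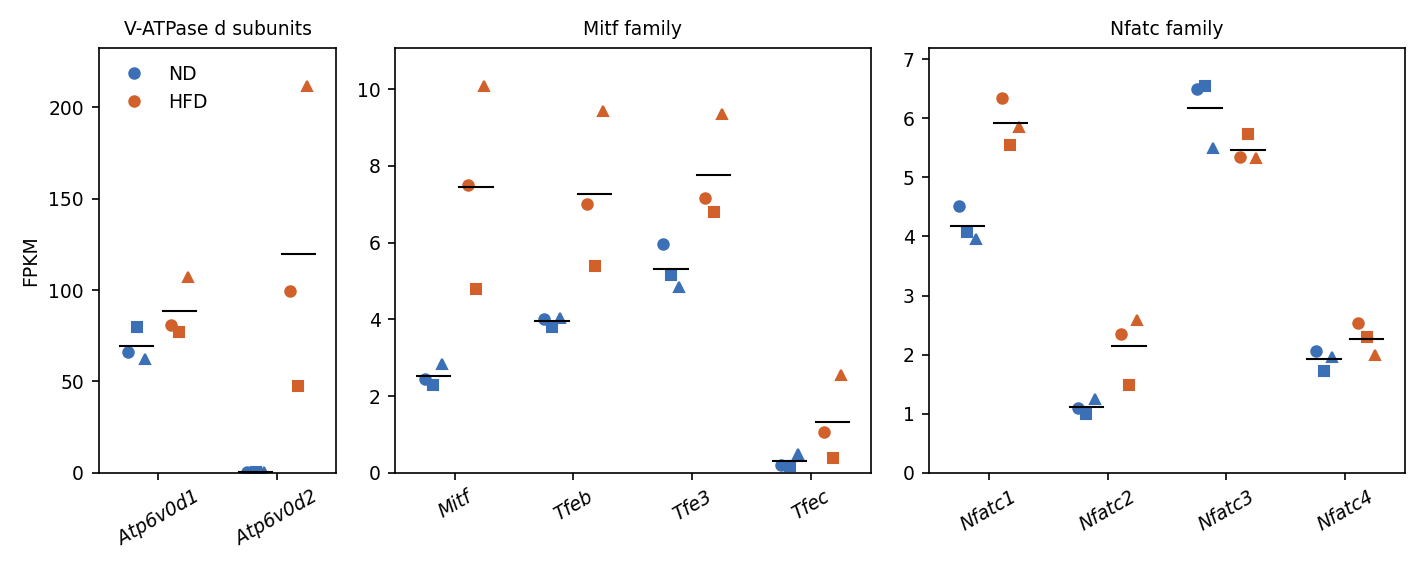
FPKM of Atp6v0d2, Mitf and Nfatc1 beside their close relatives, in 3 panels with linear axes from 0, with ND in blue and HFD in orange. Points are single libraries and horizontal lines are means of 3 libraries. Atp6v0d2 lies near 0 on ND and overlaps the range of Atp6v0d1 on HFD.

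The signals that act on osteoclast precursors were measured on the side of the ligands and of the receptors. Tnfsf11, the gene of RANKL, had 2, 4 and 13 counts on ND against 6, 2 and 4 on HFD and did not pass the filter on low counts, and in the DESeq2 fit, which kept it, it was not called (-0.56, adjusted p = 0.808). Its receptor gene Tnfrsf11a (RANK) had 157, 107 and 181 counts on ND against 758, 368 and 1120 on HFD and rose (log2 fold change 2.43, SE 0.38, adjusted p = 0.0112 by edgeR's quasi-likelihood test). Tnfrsf11b, the gene of the RANKL decoy osteoprotegerin, had 235, 432 and 195 counts on ND against 213, 190 and 136 on HFD and was not called (-0.62, SE 0.36, adjusted p = 0.276). Csf1r, the M-CSF receptor, rose by 1.32 (SE 0.21, adjusted p = 0.0114 by edgeR's test). Of its ligands, Csf1 was not called (-0.10, SE 0.14, adjusted p = 0.661) and Il34 fell, from 569, 507 and 684 counts to 400, 323 and 286 (-0.71, SE 0.14, adjusted p = 0.0206 by edgeR's test). Leaving out ND replicate 1, ND replicate 2 or HFD replicate 1 raised the adjusted p of Tnfrsf11a past the threshold, to 0.0559 at most, and that of Csf1r to 0.0526 to 0.0571, and leaving out these or ND replicate 3 raised that of Il34 to 0.0548 to 0.0747. With all libraries, the receptors for both signals were higher on HFD, while none of the 3 tested genes of their ligands and decoy was called higher.

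The adaptor DAP12, with which Siglec15 pairs, is encoded by Tyrobp, which had 1164, 903 and 1220 counts on ND against 5513, 3122 and 10191 on HFD (2.61, SE 0.40, adjusted p = 0.0104 by edgeR's quasi-likelihood test). Trem2, another DAP12 partner and a lipid receptor of macrophages, had 144, 132 and 194 counts on ND against 5241, 2783 and 9442 on HFD (5.31, SE 0.47, adjusted p = 0.00344). Fos, part of the AP-1 factor, rose by 3.33 (SE 0.39, adjusted p = 0.00640 by edgeR's test), and Blnk, a signalling adaptor, and Pirb, an inhibitory receptor, rose by 3.32 (SE 0.45) and 2.88 (SE 0.40). Of the 34 signalling and transcription genes tested, 18 rose, 1 fell and 15 were not called, with a median log2 fold change of 0.75. Over all genes tested, 9.85% were called higher and 6.04% lower. The call of Tyrobp was lost without ND replicate 1 (adjusted p = 0.0521) and without ND replicate 2 (0.0556), while those of Trem2, Fos, Blnk and Pirb held with any 1 library left out. The number called, 19, was 7 without ND replicate 1, 6 without ND replicate 2 and 10 without HFD replicate 1.

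Of 29 genes of the resorption machinery other than the 10 described, 10 rose, 1 fell and 18 were not called, with a median log2 fold change of 0.63. The shares over all genes tested were 9.85% called higher and 6.04% called lower. Tcirg1, the a3 subunit of the proton pump that osteoclasts need to acidify bone, had 802, 569 and 779 counts on ND against 3714, 1913 and 6095 on HFD (2.54, SE 0.39, adjusted p = 0.0103 by edgeR's quasi-likelihood test). The pump subunits Atp6v0a1 (2.09, SE 0.24), Atp6v1b2 (1.96, SE 0.34) and Atp6v1a (1.70, SE 0.36) also rose. Mmp9, a gelatinase of osteoclasts and neutrophils, fell, from 352, 137 and 313 counts to 66, 74 and 53 (-1.94, SE 0.35, adjusted p = 0.0149 by edgeR's test). Itgb3, a chain of the integrin that anchors osteoclasts to bone, was not called (0.50, SE 0.28, adjusted p = 0.257). Car2, the carbonic anhydrase that supplies protons for resorption, was not called either, and 339 of its counts lay in the third ND library, the one with the cilium and epithelial markers. Of these named genes, Atp6v0a1 was called with any 1 library left out. Tcirg1 was not without ND replicate 2 (adjusted p = 0.0545), Mmp9 was not without ND replicate 1, ND replicate 3 or HFD replicate 1 (0.0503 to 0.0713), and Atp6v1b2 (0.0526 to 0.0633) and Atp6v1a (0.0738 to 0.0939) were not without any 1 of the ND libraries or HFD replicate 1. The number called, 11, was 3 without any 1 of the 3 ND libraries or of HFD replicate 1, and 20 without HFD replicate 2.

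Of 20 genes tied to macrophage fusion, 11 rose, 0 fell and 9 were not called, with a median log2 fold change of 0.998. Beside these stand 9.85% of all genes tested called higher and 6.04% called lower. Adam8, a membrane protease, had 180, 95 and 241 counts on ND against 5518, 2012 and 10459 on HFD (5.23, SE 0.65, adjusted p = 0.00689 by edgeR's quasi-likelihood test). The hyaluronan receptor Cd44 (2.92, SE 0.42), the inhibitory receptor Cd200r1 (2.82, SE 0.41) and the tetraspanin Cd9 (2.39, SE 0.40) rose as well. The call of Cd9 was lost without ND replicate 1 (adjusted p = 0.0570) and ND replicate 2 (0.0596), and those of Adam8, Cd44 and Cd200r1 held with any 1 library left out. The number called was 7 without ND replicate 1 and 6 without ND replicate 2. The macrophage markers, which rose on HFD as given above, are expressed by the same lineage as these lists, and their part in the counts of these 3 lists was not tested. Runx2, listed as a bone-forming marker, rose too (21, 20 and 29 counts against 103, 91 and 190). The other tested gene of that list, Alpl, was not called and went the other way (136, 127 and 204 counts against 111, 118 and 52).

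**Figure D5:**
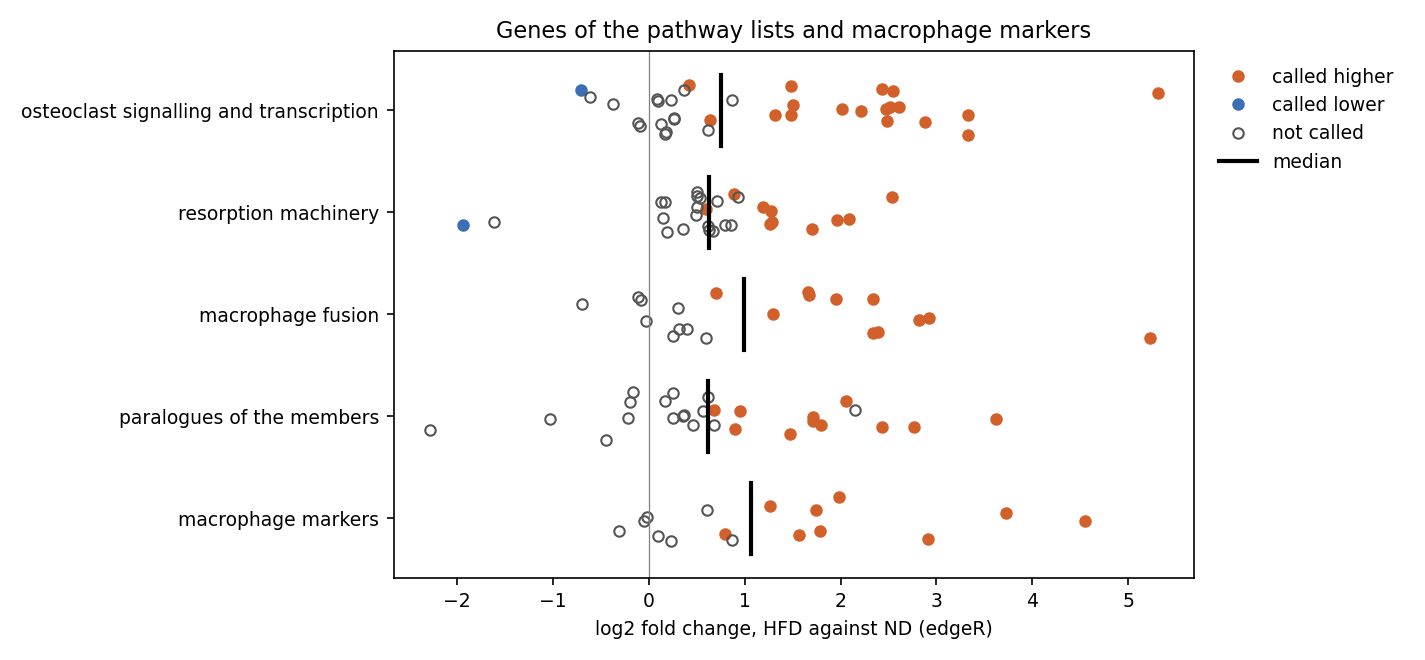
Log2 fold change, HFD against ND, of each tested gene in 5 lists, with 1 point per gene, filled in orange where called higher, filled in blue where called lower (adjusted p under 0.05 by edgeR's test) and open otherwise. The vertical position within a list has no meaning. Vertical bars are list medians, at 0.75 for signalling, 0.63 for resorption machinery, 0.998 for fusion, 0.62 for relatives (paralogues) of the 10 genes and 1.07 for macrophage markers.

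The genes whose pattern was most like that of Siglec15 over the 6 libraries, by Pearson's r of log2 CPM among 12517 genes, were Myo1e, Dhrs9, Selplg, Tlr1 and Evi2a, each with r = 0.999. The 6 points fall into 2 diets, which the genes share, and the values are given as a description. Siglec15 had no counts on ND, so its log2 CPM there rests only on the small count that edgeR adds before taking logs. Myo1e, a myosin of the cell cortex, had 423, 414 and 499 counts on ND against 3265, 1582 and 4543 on HFD. Dhrs9, a dehydrogenase of retinoids and steroids, had 45, 41 and 52 counts on ND against 908, 337 and 1680 on HFD. Both were picked by r over these same libraries, so nothing is read from their repeating the order of the HFD libraries seen for Siglec15. Neither was without counts on ND.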

How the data were processed

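RNA from 6 epididymal fat samples was sequenced, 3 per diet, with groups and replicate numbers taken from the labels. The authors deposited raw read counts per gene, which are not normalized, with FPKM values beside them. The paper's methods name TopHat and Cufflinks with GRCm38, whereas the submitters' processing notes name fastp, HISAT2 2.0.5, featureCounts 1.5.0-p3 and the human build GRCh38 (hg38). The identifiers are mouse Ensembl genes, and which of these steps made the files was not settled. The annotation release and the use of strand in counting are not given in the sources used here. Reads that genes share could therefore be split differently from one pipeline to another. GENCODE M21 gave symbols and coordinates for 54495 of 54532 identifiers.

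Counts were tested with edgeR 4.0.16 (R 4.3.3), using TMM factors, filterByExpr (15751 genes kept), a robust quasi-likelihood fit with diet as the only term and Benjamini-Hochberg adjustment over all genes, with 0.05 as the threshold. Most log2 fold changes are given with a standard error (SE), calculated as the absolute log2 fold change over the square root of the quasi-likelihood F statistic. An exact permutation test of 3 against 3 libraries cannot go below p = 0.1 and was not used. CPM used the TMM-scaled library size, and intervals and floors cover counting error only. DESeq2 brought its own size factors and filter (18952 genes), and limma on FPKM changed the input, the scaling, the test and the filter together, while each other alternative changed 1 step. The test was replaced by DESeq2 1.42.0 or by limma-voom (limma 3.58.1), the scaling by the size factors of DESeq2 or by the count total alone, and the filter by none or by a minimum of 10 counts in 3 or more libraries. The FPKM values were tested with limma after adding 1 and taking log2, keeping genes that reached 0.5 FPKM in 3 or more libraries, and again with 0.1 added or with all genes kept. Replicate number was added as a block, and each library was left out in turn.

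The 10 genes and the gene lists were chosen with earlier results of these data known. Genes named from the lists are the ligands, receptors and close relatives given above, whatever their change, and in each list up to 4 genes per direction with the largest log2 fold change in size among those past the threshold. Likeness to Siglec15 was ranked over tested protein-coding genes whose mean log2 CPM was above 1. Itgb3, Car2, Dct, Pmel, Mlana, Lyz2, Cd68, Itgax, Runx2, Alpl and the ratio of Ctsk to Atp6v0d2 were chosen after their values were seen.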

Additional observations from a re-analysis of the deposited data

How the results depend on the processing

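No direction among the 10 genes or the list counts turned under any alternative run. With limma on log2(FPKM + 1) and all genes kept, 649 genes differed between the diets in place of 2504, and 2 of the 10 genes were called in place of 7, 9 signalling genes in place of 19, 3 resorption genes in place of 11 and 2 relatives in place of 11. DESeq2 called 20 resorption genes and 3629 genes in all. Leaving out 1 library at a time gave 474 (without HFD replicate 1) to 3940 genes (without HFD replicate 2), 1 to 8 of the 10 genes, 6 to 21 signalling, 3 to 20 resorption, 6 to 12 fusion and 2 to 15 relative genes. These fits have fewer samples. The cause of the other differences was not tested. When replicate number was fitted as a block, 1886 genes were called, with 7 of the 10 genes, 17 signalling, 9 resorption, 9 fusion and 9 relative genes, and of the named list genes Il34 (adjusted p = 0.0503), Atp6v1a (0.0577) and Cd22 (0.0605) lost the call and Tfec (0.0375) gained it. Same-numbered libraries come from different mice and did not deviate together (r from -0.0858 to -0.00532), so they share only a number. No library correlated best with its own number. Depth limits Calcr, Oscar and Tnfsf11, which did not pass the main filter on low counts. Oscar and Tnfsf11 were fitted by DESeq2 and without the filter and were not called.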
